A study of Mus musculus with 16 samples.

Results

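Serpina1a, Serpina1b, Serpina1c, Serpina1d and Serpina1e are the mouse genes for alpha-1-antitrypsin, and Serpina10 encodes a related inhibitor from the same stretch of chromosome 12. They were followed in the kidneys of 5 mice through every probe whose platform annotation is, or lists, 1 of these 6 genes. This gave 6 probes of the 20205 on the array: 3 name a single gene (Serpina1e, Serpina1b and Serpina10) and 3 list several. Serpina1a, Serpina1c and Serpina1d had no probe of their own. All 6 probes had enough values to be tested. The genes were picked because earlier results of these data put Serpina1e and Serpina10 on opposite sides with wide differences, so their differences between kidneys are given as a description, without p-values. Counts of calls among them restate that choice and are no evidence of their own.

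The study set kidneys of single untreated mice against that of a littermate. The right kidney was taken from 5 male littermates, W1 to W5, all wild-type and of mixed C57BL/6 and 129Sv background, aged 88 ± 2 days and killed between 8 and 10 in the morning. RNA of W1, W2, W3 and W4 was each hybridised with RNA of W5 on 4 two-colour arrays, 2 with the mouse in channel 1 and 2 with it in channel 2, which made 16 arrays. The genotype of each mouse at the Serpina1 genes is not given in the sources used here.

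The deposited value of a spot is a log2 ratio of the 2 channels, without the signal of either, so a level in 1 kidney cannot be given, and the tissue label cannot be checked against levels of kidney markers. Which channel is the numerator, and which dye each held, is also not given. The sign was turned on the 8 arrays that held W5 in channel 1, so that all 16 run the same way, mouse against W5. A positive value means that the mouse lay on the same side of W5 as for Serpina1e, called side A here, and a negative value means the opposite side, side B. Whether side A is higher or lower expression is not settled: a value of 1 is a difference of 2-fold in an unknown direction.

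Alpha-1-antitrypsin is a secreted serine protease inhibitor that blocks neutrophil elastase. It is made mainly in hepatocytes and acts by offering a loop that the protease cuts, which traps it. Mice carry a cluster of near-identical copies of the gene where humans have a single one, and the copies differ mostly in that loop. Serpina10 is the protein Z-dependent protease inhibitor, a liver-made brake on coagulation factors X and XI in their active forms.

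The start regions of the 5 Serpina1 genes are shown to let their likeness be seen. They are mostly not transcribed, so they say nothing of which RNA a probe binds. RefSeq windows of 300 bases (250 before and 50 after the annotated start, build GRCm38.p6, minus strand) were matched for 5 of the 6 genes. The Serpina1e window, chr12:103956848-103957147, is printed whole, with capitals for 2 motifs searched on both strands, TGTTTGC (a forkhead-type motif) and GTTAAT (an HNF1 half-site).
Serpina1e: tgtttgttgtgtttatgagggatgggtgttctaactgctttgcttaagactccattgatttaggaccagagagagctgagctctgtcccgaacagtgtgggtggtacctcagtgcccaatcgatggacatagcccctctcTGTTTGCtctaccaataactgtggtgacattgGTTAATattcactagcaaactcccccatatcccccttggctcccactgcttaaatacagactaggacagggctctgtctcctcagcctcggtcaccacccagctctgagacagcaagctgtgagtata
Over the 10 pairs of genes, 91.4% to 97.6% of aligned positions were identical, the highest share being that of Serpina1b and Serpina1e. Pairs with Serpina1e were aligned over 239 to 250 positions and the other pairs over 290 to 300, so their shares cover unlike stretches. Both motifs were found in all 5 windows. GTTAAT was present in 7.10% and TGTTTGC in 5.07% of all 32851 promoter windows of this length. A match describes letters and does not show a bound site. The stretch of 94 bases around both motifs is given for all 5 genes to show how little the copies differ.
Serpina1a, chr12:103863597-103863690: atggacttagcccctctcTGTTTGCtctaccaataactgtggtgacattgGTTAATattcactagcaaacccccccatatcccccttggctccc
Serpina1b, chr12:103738172-103738265: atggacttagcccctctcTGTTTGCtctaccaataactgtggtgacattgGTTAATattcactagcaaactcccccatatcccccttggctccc
Serpina1c, chr12:103904934-103905027: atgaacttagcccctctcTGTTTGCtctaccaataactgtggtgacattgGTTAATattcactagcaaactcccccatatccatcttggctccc
Serpina1d, chr12:103773606-103773699: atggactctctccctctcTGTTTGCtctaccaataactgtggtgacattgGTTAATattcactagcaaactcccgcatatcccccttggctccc
Serpina1e, chr12:103956932-103957025: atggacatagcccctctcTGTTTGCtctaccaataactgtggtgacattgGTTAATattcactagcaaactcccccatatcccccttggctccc
Within these stretches any 2 genes differed at 1 to 8 of the 94 bases, and Serpina1b differed at 1 from Serpina1a and at 1 from Serpina1e. The annotated starts lie at different distances from them: GTTAAT begins 78 bases before the start of Serpina1e and 26 before that of Serpina1b.

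Serpina1e differed widely between the kidneys. Its log2 ratios to W5 were 1.96, 2.02, 1.64 and 1.94 for W1, and 2.56, 2.85, 2.91 and 2.92 for W2. They were 2.43, 2.68, 2.60 and 2.80 for W3, and 2.25, 2.43, 2.18 and 1.93 for W4. All 16 arrays lay on side A, the lowest at 1.64 and the highest at 2.92, and the arrays of W2 did not overlap with those of W1 or W4. From the linear model, which gives each mouse a coefficient against W5, W2 differed from W5 by 2.81 ± 0.09 (SE), a 7.02-fold difference, and W1 by 1.89 ± 0.09, a 3.71-fold difference. W3 differed by 2.63 ± 0.09 and W4 by 2.197 ± 0.09. The 4 mice averaged 2.38 ± 0.417 (SD, n = 4). Every one of these values holds the same W5 RNA.

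**Figure D1:**
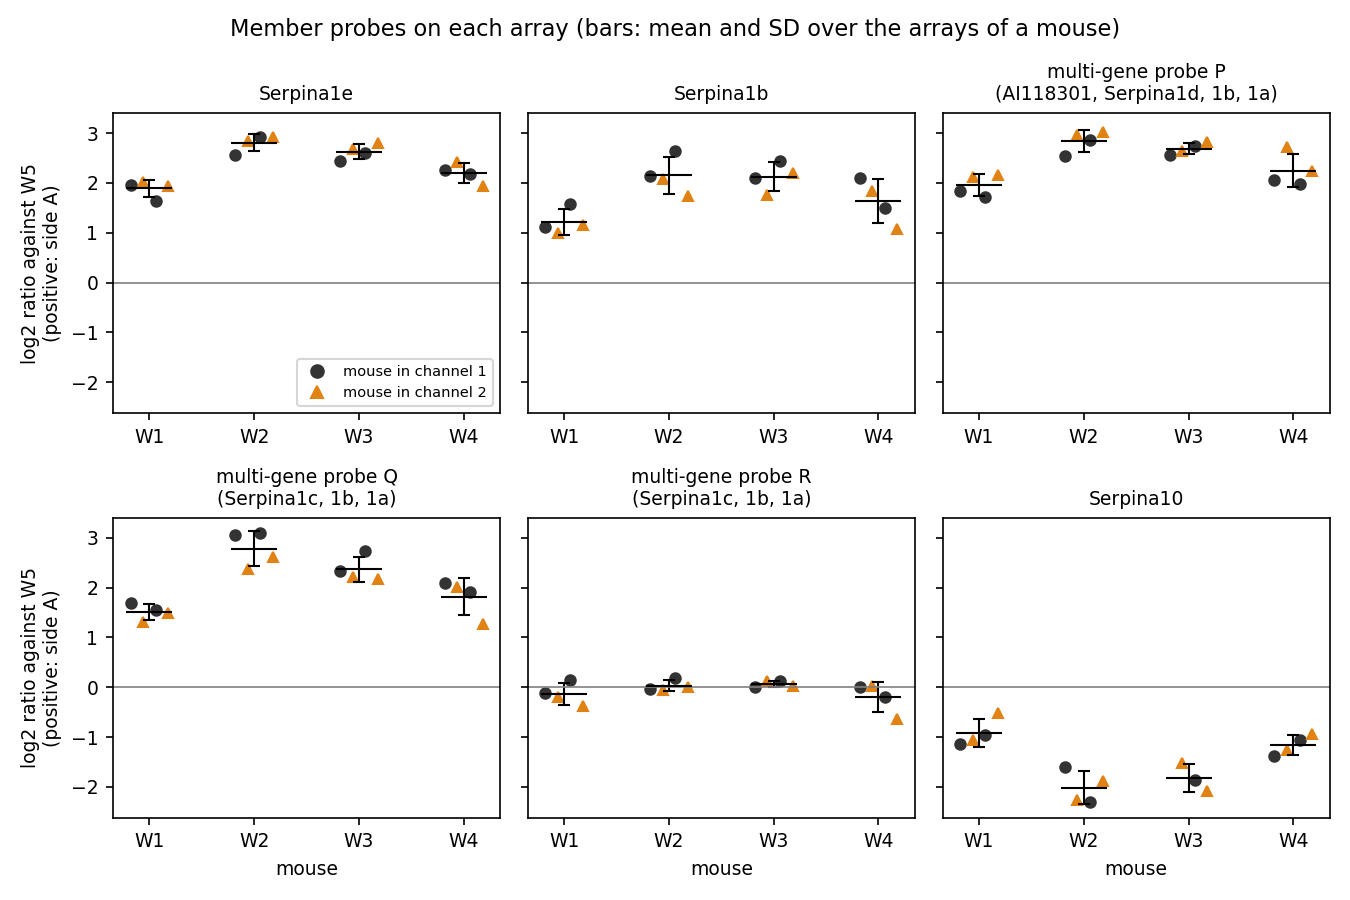
Log2 ratio to W5 (vertical axis, W5 at 0) of the 6 probes on each array, grouped by mouse W1 to W4 (horizontal axis); circles are arrays with the mouse in channel 1, triangles arrays with it in channel 2, and bars the mean and SD over a mouse's arrays. The arrays of Serpina1e lie between 1.64 and 2.92, those of Serpina10 between -2.30 and -0.52, and those of probe R on both sides of 0.

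Serpina1b, the second single-gene probe of the cluster, lay on side A on all 16 arrays too. Its log2 ratios were 1.12, 1.00, 1.58 and 1.15 for W1, and 2.15, 2.08, 2.63 and 1.75 for W2. They were 2.099, 1.75, 2.45 and 2.195 for W3, and 2.09, 1.85, 1.501 and 1.08 for W4. W2 and W3 stood together above W1, whereas the 4 arrays of W4 spread from the W1 values up to the W2 values. The coefficients were 1.21 for W1, 2.15 for W2, 2.12 for W3 and 1.63 for W4, each ± 0.13 (SE). The 4 mice averaged 1.78 ± 0.447 (SD, n = 4), or 3.43-fold in size.

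The 3 multi-gene probes did not behave alike. Probe P, listed for Serpina1d, Serpina1b, Serpina1a and the symbol AI118301, had coefficients of 1.96, 2.85, 2.69 and 2.25 for W1 to W4, each ± 0.09 (SE). These lie close to those of Serpina1e, from which probe P differed by 0.07 ± 0.146 (SD over the 4 arrays) in W1 and by 0.04 ± 0.0889 in W2. Probe Q, listed for Serpina1c, Serpina1b and Serpina1a, had coefficients of 1.51, 2.78, 2.36 and 1.82, each ± 0.10 (SE). Its 16 arrays ran from 1.27 to 3.09, all on side A.
Probe R is listed for the same 3 genes as probe Q, and its values stayed near 0. Its log2 ratios were -0.11, -0.19, 0.14 and -0.38 for W1, and -0.03, -0.05, 0.19 and 0.01 for W2. They were 0.01, 0.12, 0.12 and 0.02 for W3, and 0.01, 0.03, -0.19 and -0.64 for W4. Of these, 9 lay on side A and 7 on side B, between -0.64 and 0.19. Its coefficients were -0.13, 0.03, 0.07 and -0.20, each ± 0.09 (SE). Probes Q and R thus disagree although their annotation is the same, and the probe sequences that would show which copies each binds were not used here. Which copies of the Serpina1 cluster moved is uncertain for this reason.

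Serpina10 lay on side B. Its log2 ratios were -1.13, -1.06, -0.96 and -0.52 for W1, and -1.60, -2.26, -2.30 and -1.89 for W2. W3 had 3 values, -1.53, -1.87 and -2.08, and W4 had -1.39, -1.27, -1.06 and -0.93. All 15 measured arrays were on side B, and those of W2 and of W3 each lay wholly apart from those of W1 and W4. The coefficients were -0.92 ± 0.13 for W1, -2.01 ± 0.13 for W2, -1.84 ± 0.15 for W3 (n = 3) and -1.16 ± 0.13 for W4 (SE). W2 thus differed from W5 by 4.04-fold and W1 by 1.89-fold, on the opposite side from Serpina1e. The mice averaged -1.48 ± 0.526 (SD, n = 4). On each of the 15 arrays the ratios of Serpina10 and Serpina1e had opposite signs.

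These are among the widest differences on the array, which is how they came to be chosen. The range over the 5 kidneys, with W5 at 0, was 2.85 for probe P, 2.81 for Serpina1e and 2.78 for probe Q, which rank 1, 2 and 3 of the 15715 tested probes. Serpina1b had a range of 2.15 and rank 8, Serpina10 a range of 2.01 and rank 11, and probe R a range of 0.26 and rank 6926. Over all tested probes the median range was 0.24 and the 99th percentile 0.80, and 11 probes had a range over 2. Over all tested probes, limma's F test for any difference among the 5 kidneys called 4.00% (629) at an adjusted p under 0.05, and the test of W5 against the means of the 4 mice called 0.286% (45). The 5 probes other than probe R are among the calls of both, which their choice had fixed, so nothing is read from it. The second test leaves out the spread of W5 itself, which is a single kidney.

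**Figure D2:**
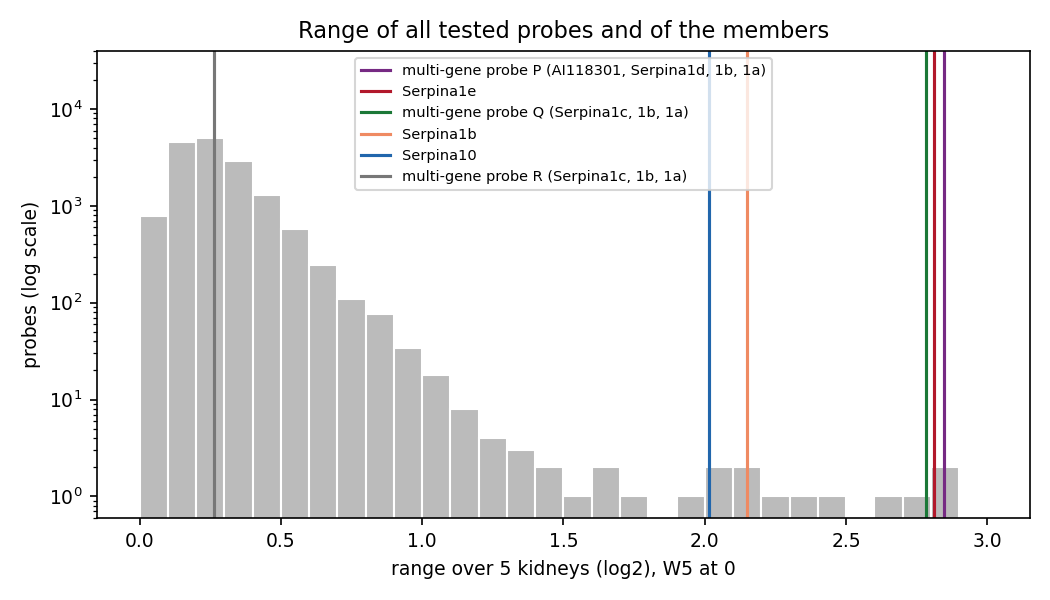
Number of tested probes (vertical axis, log scale) by their range over the 5 kidneys in log2 units (horizontal axis), with a vertical line for each of the 6 probes. Probe R lies in the bulk at 0.26, and the other 5 lie at 2.01 or above, where 11 probes are found.

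Differences among W1 to W4, in which W5 cancels out, are described next. The range among these 4 was 1.27 for probe Q, 1.09 for Serpina10, 0.94 for Serpina1b, 0.92 for Serpina1e, 0.89 for probe P and 0.26 for probe R, against a 99th percentile of 0.79 over all tested probes. Between the extremes, W2 and W1, this is 1.89-fold for Serpina1e and 2.14-fold for Serpina10. Limma's F test among W1 to W4 called 0.700% of all tested probes (110), the same 5 probes included, which again follows from the choice and is not read as a result.
By size the order was W2, W3, W4, W1 in Serpina1e, Serpina1b, probes P and Q, and, on side B, Serpina10. Not every step of it exceeded the error. For Serpina1e, W2 exceeded W3 by 0.18 ± 0.12 (SE), W3 exceeded W4 by 0.43 ± 0.12 and W4 exceeded W1 by 0.31 ± 0.12. For Serpina10, W2 minus W3 was -0.17 ± 0.19, W3 minus W4 was -0.68 ± 0.19 and W4 minus W1 was -0.24 ± 0.18. In all 5 of these probes the arrays of W2 and of W3 lay apart from those of W1, whereas W2 overlapped with W3, and W4 with W1, in each of them. W4 lay apart from W2 in 3 of the 5, and from W3 in 3 of the 5. The share of all tested probes with such gaps was not counted. These probes were chosen for wide differences, so nothing is read from the gaps. A mouse's 4 arrays hybridised 1 RNA again and again, so these errors describe the assay and not a population of mice. In whole kidney RNA, fewer cells of a type and less RNA per cell cannot be told apart.

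The channel term of the model was not used in choosing the genes. It gives the distance of a probe's ratio in either orientation from the mean of both, so the whole shift between orientations is larger. The term was tested for all probes with limma, and 12.5% were called (1959), with a median size of 0.07. It passed for 2 of the 6 probes: 0.19 ± 0.05 (SE) for probe Q, with an adjusted p of 0.0237, and -0.15 ± 0.04 for probe P, with an adjusted p of 0.0309. Serpina1b had 0.17 ± 0.07 (adjusted p = 0.0860), probe R 0.08 ± 0.05 (adjusted p = 0.290), Serpina1e -0.06 ± 0.04 (adjusted p = 0.350) and Serpina10 -0.04 ± 0.07 (adjusted p = 0.725). The calls were not firm, since probe P lost its call in 8 and probe Q in 3 of 21 other settings, and Serpina1b gained one in 1. Apart from probe R, whose coefficients were near 0 too, the terms are small beside the differences from W5. In Serpina1e, W2 averaged 2.74 with W2 in channel 1 and -2.89, as deposited, with W2 in channel 2. The deposited sign thus turned over with the RNA.

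**Figure D3:**
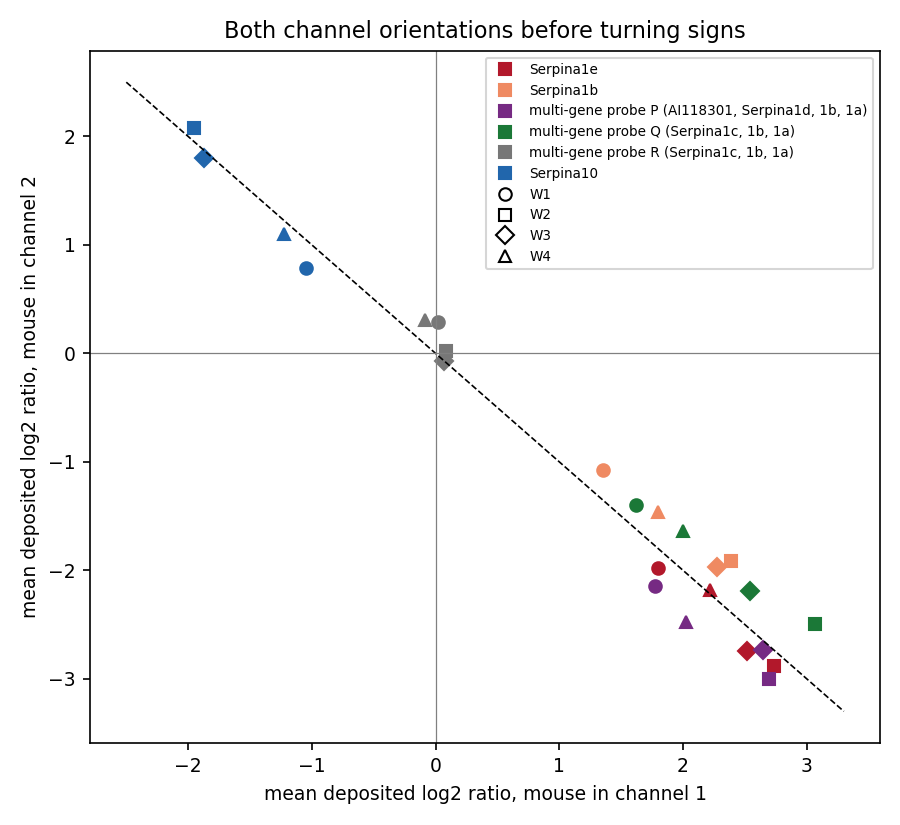
Mean log2 ratio as deposited, before the sign was turned, with the mouse in channel 1 (horizontal axis) against that with the mouse in channel 2 (vertical axis), by probe (colour) and mouse (shape); the dashed line marks equal size and opposite sign. For Serpina1e, W2 stands at 2.74 with the mouse in channel 1 and at -2.89 with it in channel 2.

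Of the tested neighbouring genes on chromosome 12, 1 was called. The gene table, used here only for the order of genes, holds 121 genes within 2 Mb of the outermost members, of which 21 beyond the members were tested, and their median range was 0.24, as over all tested probes. The called gene was Fbln5, which encodes an elastic fibre protein (4.76% of the 21, against 4.00% of all probes). Its coefficients on side A were 0.70, 1.22, 0.48 and 1.21 for W1 to W4 (limma adjusted p = 2.89e-10), and their order differs from that of Serpina1e, with W3 lowest. Serpina6, which encodes corticosteroid-binding globulin and lies between Serpina10 and Serpina1b, had a range of 0.21 (adjusted p = 0.650). Ifi27, on the outer side of Serpina10, had a range of 0.23 (adjusted p = 0.821). Ifi27l2a, next to it, had coefficients on side B in W1 to W4, from -0.47 to -0.25, that did not pass (adjusted p = 0.0797) but were called in 5 of 22 other settings.

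**Figure D4:**
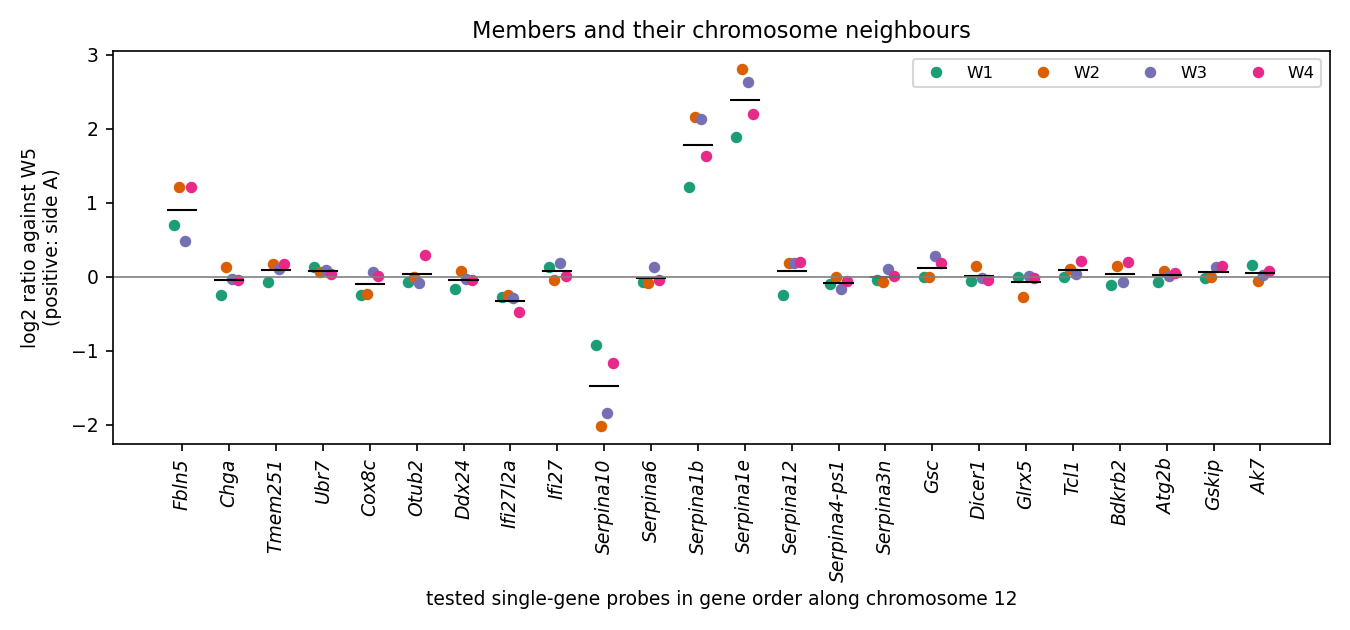
Fitted log2 ratios to W5 (vertical axis) of W1 to W4 for the tested single-gene probes near the members, in their order along chromosome 12 (horizontal axis, not to distance); short bars are means over the 4 mice. Serpina1b and Serpina1e stand on side A and Serpina10 on side B, while Serpina6 between them has a range of 0.21.

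Of 23 other Serpina genes, 7 had a probe and 4 were tested, and none was called by limma (1 probe a gene, the one measured on most arrays; all lists are read against the 4.00% of all probes). Serpina12, the adipokine vaspin, had the widest range, 0.45 (adjusted p = 0.203, called in 2 of 22 settings), followed by Serpina6. Serpina4-ps1 had 0.17 and Serpina3n, an acute phase inhibitor, 0.18. Of 41 serpins of other clades with angiotensinogen, 5 were tested and none called, the widest being Serpinb1a, an inhibitor of neutrophil proteases, at 0.55 (adjusted p = 0.511). The list of proteases and coagulation factors gave 9 tested genes with none called. Plau (urokinase) had the widest range, 0.74 (adjusted p = 0.114), before F12, coagulation factor XII, at 0.48 (adjusted p = 0.554). The targets named above were not among the tested genes. Those of neutrophil elastase and factor XI had no named probe, and that of factor X had too few values.

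Among transcription factors that drive liver genes, 1 of 9 tested was called. This was Nr1h4, the bile acid receptor FXR, on side A with 0.49, 0.48, 0.57 and 0.90 for W1 to W4 (limma adjusted p = 7.13e-08). Its largest value was in W4, where Serpina1e had its largest in W2. Cebpd had a range of 0.47 (adjusted p = 0.231) and Hnf4a, a central factor of hepatocytes and proximal tubule, one of 0.18 (adjusted p = 0.385). None of 9 tested acute phase genes was called by limma, with Fgg (a fibrinogen chain) at 0.69 (adjusted p = 0.167) and Hp (haptoglobin) at 0.62 (adjusted p = 0.105) the widest. None of 15 tested genes for the folding and export of secreted proteins was called either, with Lman1, a cargo receptor, at 0.43 (adjusted p = 0.256) and Xbp1 at 0.40 (adjusted p = 0.967) the widest. The median ranges of these 3 lists were 0.34, 0.27 and 0.20, against 0.24 over all probes.

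Markers of other cells that a kidney sample could hold were set beside these values, since the members are known as liver genes. Of 15 tested hepatocyte markers 3 were called, with a median range of 0.34. Apoh (apolipoprotein H) lay on side A with 0.14, 0.44, 0.42 and 0.35 for W1 to W4 (limma adjusted p = 0.000131). Cps1, of the urea cycle, was on side A at 0.11, 0.07, 0.38 and 0.22 (adjusted p = 0.0407, a call lost in 14 of 22 settings). Ttr lay on both sides of W5, from -0.54 in W2 to 0.05 in W1 (adjusted p = 9.99e-05), and its other probe was not called (adjusted p = 0.907). Of the 15, 3 lay on side A in all of W1 to W4 (Apoh, Cps1 and albumin), 3 on side B (Itih2, Apoa2 and Fgb) and 9 on both. Itih2 had -0.14, -0.52, -0.49 and -0.56 (adjusted p = 0.0588), Apoa2 -0.30, -0.21, -0.45 and -0.02 (adjusted p = 0.125), and albumin, the defining hepatocyte transcript, 0.06, 0.05, 0.10 and 0.34 (adjusted p = 0.162).
Of 5 tested adipocyte markers 4 were called, 3 of them on side B with Serpina10: Fabp4, the adipocyte fatty acid carrier, with -0.47, -0.67, -0.64 and -0.31 (limma adjusted p = 3.80e-05), Cidec (adjusted p = 0.00219) and Car3 (adjusted p = 0.00145). A second Car3 probe was called on side B too, with a range of 0.87 (adjusted p = 2.14e-06). Lpl lay on both sides in its 3 probes, at ranges of 0.59 (adjusted p = 0.0273, a call lost in 4 of 22 settings), 0.65 (adjusted p = 0.00309) and 0.77 (adjusted p = 0.000717). With 1 probe a gene, the adipocyte list had a median range of 0.59 and a widest of 0.85.
Proximal tubule markers gave 2 calls of 7, the water channel gene Aqp1 on both sides (limma adjusted p = 0.0153, a call lost without the channel term) and Ass1 on side A (adjusted p = 0.0492, a call lost in 16 of 22 settings). Markers of the last tubule segment, S3, gave 4 calls of 7, at ranges up to 0.54. Of these the transporter gene Slc17a3 lay on side A, at 0.22 to 0.52 (limma adjusted p = 0.00309). Gramd1b (adjusted p = 0.00125) and the glucose transporter gene Slc5a1 (adjusted p = 0.00929, a call lost without the channel term) lay on side B. Slc22a7, the widest, lay on both, with -0.05, -0.53, 0.02 and -0.50 for W1 to W4 (limma adjusted p = 7.26e-05). With 1 probe a gene, none was called by limma of 6 leukocyte, 2 red cell and 3 adrenal markers tested. A second probe of the leukocyte marker Lyz2 (15 arrays) was called, with 0.09, 0.32, 0.48 and -0.01 (adjusted p = 0.0117), while its first was not (adjusted p = 0.127). The part of any of these cell types in the values of the members was not tested.

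The resemblance between the members was measured by the cosine of their log2 ratios over the arrays. It is 1 where the values of both probes keep a fixed ratio, whatever its size, and -1 where they do so with opposite signs. All ratios share W5 and the arrays, so these are descriptions. Serpina1e had a cosine of 0.998 with probe P, 0.988 with probe Q, 0.984 with Serpina1b, -0.980 with Serpina10 (15 arrays) and -0.19 with probe R. Of 326 called single-gene probes of other genes with values on all 16 arrays, the 5 closest to Serpina1e were Apoh (0.942), Fbln5 (0.931), Glyat (0.928), Nr1h4 (0.917) and Sec23b (0.906). The 5 most opposite were Rdh16f2 (-0.949), Fabp4 (-0.948), the second Car3 probe (-0.937), Gadd45g (-0.906) and Cyp4a14 (-0.890).
Of the genes closest or most opposite to Serpina1e, only Apoh had its order of the mice by size. Fabp4 ran W2, W3, W1, W4. Pearson's r with Serpina1e over the arrays, which removes the common offset from W5, was 0.662 for Apoh and -0.639 for Fabp4. It was 0.135 for Fbln5 and -0.0174 for Glyat, and ran from -0.426 (Cyp4a14) to -0.0239 (Gadd45g) for the rest. For Serpina10 the closest were Rdh16f2 (0.948), Fabp4 (0.942), Tmem238 (0.895), the second Car3 probe (0.893) and Cyp4a14 (0.893), and the most opposite Apoh (-0.928), Fbln5 (-0.900), Glyat (-0.887), Ccn1 (-0.881) and Hsd3b3 (-0.874). Rdh16f2, of a family of retinol and steroid dehydrogenases, had coefficients of -0.77, -1.10, -0.73 and -0.66 (limma adjusted p = 4.75e-08). Tmem238 followed the order of Serpina10, with -0.03 for W1, -1.08 for W2, -0.74 for W3 and -0.40 for W4 (adjusted p = 9.99e-05, Pearson's r = 0.781).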

How the data were processed

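The authors deposited log2 ratios of 2-colour arrays, per the file headers and values; the log base was read from the values, as the sources used here do not give the steps before deposit. Each array held 16209 to 18406 of the 20205 probes. Symbols came from the platform annotation, matched to current names where possible. The members and gene lists were chosen with earlier results of these data known. Signs were turned on arrays with W5 in channel 1, with no further scaling. limma 3.58.1 in R 4.3.3 fitted 4 mouse coefficients and a channel (dye) term per probe with at least 3 values in each mouse (15715 probes), with Benjamini-Hochberg adjustment of p-values over all of them. W5 was also tested against 0 by limma on the 4 mouse means. p-values from arrays measure technical spread. Signal intensities were not used here, so the precision behind each ratio rests on the arrays alone. Other filters, scalings, array weights, leaving out arrays and dropping the channel term were tried. Genes named beyond the members were those called or the 2 widest of a list, and the 5 nearest and 5 most opposite by cosine, with albumin, Itih2, Apoa2, Fgb, Hnf4a, Ifi27, second probes and the tested Serpina genes added after their values were seen; named lists: hepatocytes, adipocytes, proximal tubule, S3, leukocytes, red cells, adrenal, other serpins, proteases, liver factors, acute phase, folding and neighbours. The fit was tested on simulated data. Deviations from the mouse mean correlated at 0.0842 to 0.316 between same-numbered arrays of different mice. For arrays of other numbers in the same orientation this was -0.0116 to 0.309. The main fit used no pairing by number.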

Additional observations from a re-analysis of the deposited data

How the results depend on the processing

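The 18 range and mean values of the 6 probes were recomputed in 20 settings. Of these 360 values, 358 moved by less than the probe's residual SD, and no mean changed sign, which a range cannot do. Many of these outcomes were fixed by the design. Dropping the channel term left the ranges as they were. Leaving out an array did so too where its mouse set the range neither with that array nor without it. In Serpina1b and probe R, some mice that did not set the range came to set it once an array was left out, and the range widened. With a common median absolute deviation, the range among W1 to W4 was 0.71 for Serpina1e and 0.97 for probe Q, and the cause was not tested. The 629 calls of the 5-kidney test were 403 without the channel term and 846 with array weights. They were 457 to 671 when 1 array was left out. The 110 calls among W1 to W4 were 62 without the channel term, 240 with array weights and 72 (without the second array of W3) to 125 when 1 array was left out. The 1959 calls of the channel term were 1267 to 1915 when 1 array was left out; they were 1267 without the fourth and 1302 without the third array of W2, and 1268 without the first array of W4. The 45 calls of W5 against its littermates were 126 over probes with values on all 16 arrays, 23 with at least 2 values per mouse, 69 with a common median absolute deviation, and 16 (without W2) to 61 (without W4) when 1 mouse was left out, with 27 without W1. With the array number as a replicate block, the counts were 591, 97 and 1957. Whether the numbers pair arrays across mice is not settled here. Some settings use fewer arrays, mice or probes, and the causes of these changes were not tested. With signals not used here, faint and bright spots cannot be separated.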

Other observations

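One probe without a gene name, chosen after its values were seen, resembled Serpina1e. It lay on side A on all 16 arrays, between 0.13 and 2.98, with coefficients of 1.37, 2.65, 2.24 and 1.94 for W1 to W4, each ± 0.24 (SE). Its range over the 5 kidneys has rank 4, next after probe Q, its residual SD was 0.573, and its cosine with Serpina1e was 0.971.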
